A study of Mus musculus with 14 samples.

Results

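Spermatid genes are the genes that build the sperm cell after meiosis, and the 40 of them examined here were searched for DMC1 peaks at their promoters and in their bodies. They were listed by known role: 5 for DNA packaging, 12 for the acrosome and gamete interaction, 7 for flagellar structure, 3 for glycolysis, 5 for the shaping of the cell and its midpiece, 4 for the CatSper channel and 4 testis-specific serine kinases. The role of *Prm3* in DNA packaging was not checked. All 40 were found in GENCODE M21 and were compared with the 21755 protein-coding genes of chromosomes 1 to 19 and X, themselves included. No RNA was measured in the data used here, so the label postmeiotic was not checked, and *Pgk2* and *Ldhc* are known to be transcribed already in spermatocytes.

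DMC1 ChIP-SSDS, which recovers single-strand DNA at broken ends through the recombinase DMC1 that coats it, was performed on whole testes of adult mice of 2 genotypes. *Hells* CTRL mice were *Hells* fl/Δ, with 1 floxed and 1 deleted allele (5 weeks old, 2 testes per replicate). *Hells* cKO mice were *Hells* fl/Δ;*Stra8*-iCre (9 weeks old, 3 testes per replicate), so they carried the same alleles and a Cre recombinase that the *Stra8* promoter drives in germ cells around the entry into meiosis. The study still saw weak HELLS staining in some *Hells* cKO spermatocytes, and it proposes that deletion by the Cre was incomplete in these. Both genotypes carried the Dom2 variant of PRDM9, and genotype and age cannot be told apart. The authors merged the 2 replicates of each genotype into 1 final peak list, with 11133 peaks for *Hells* CTRL and 17117 for *Hells* cKO. No spread between mice could be computed, so no test was made, and the main shares are given with an exact (Clopper-Pearson) 95% confidence interval that covers counting error only. This interval counts genes as independent, although some members lie in 1 cluster, and it does not serve as a test of agreement. The number of reads behind a peak is unknown. The study found fewer peaks in *Hells* cKO than in mice without PRDM9 and proposes that a lower signal could be the reason. A start without a listed peak may therefore hold breaks too weak to be called. Strength is the deposited score of a peak (median 63 in *Hells* CTRL and 31 in *Hells* cKO), and its percentile is its rank within its own list. Strengths are not compared between the lists, because the study gives no scale common to both genotypes.

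In mouse male meiosis, DNA double-strand breaks are placed by PRDM9, which binds short DNA words, writes H3K4me3 there and works with the chromatin remodeler HELLS. Where PRDM9 does not act, breaks form at other H3K4me3 sites, among which are gene promoters, and promoters rich in CpG dinucleotides carry this mark in most cell types whether or not the gene is active. Spermatid genes are a particular case because many of them are transcribed only after the breaks have been made and repaired, and many have promoters poor in CpG.

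The following promoters show the range of CpG content. *Hook1* (chr4:95966990-95967239, plus strand, 17 CG) and *Zpbp2* (chr11:98550902-98551096, plus strand, 16 CG) had the strongest and the weakest *Hells* cKO promoter peak among members whose own start was nearest. *Spata18* (chr5:73651129-73651378, plus strand, 24 CG) and *Acrv1* (chr9:36692970-36693219, plus strand, 0 CG) had the most and the fewest CG around the start among members without such a peak. *Prm1* (chr16:10796887-10797136, minus strand, 0 CG) is the textbook spermatid gene. Each run ends at the base before the representative start, except that of *Zpbp2*, which ends 56 bases before it because an exon of another transcript follows. The runs of *Hook1* and *Acrv1* overlap an exon of a noncoding transcript of the opposite strand (*9530080O11Rik* and *1700027I24Rik*). They are read 5′ to 3′ on the gene's strand from GRCm38.p6, with CG in capitals.
Hook1: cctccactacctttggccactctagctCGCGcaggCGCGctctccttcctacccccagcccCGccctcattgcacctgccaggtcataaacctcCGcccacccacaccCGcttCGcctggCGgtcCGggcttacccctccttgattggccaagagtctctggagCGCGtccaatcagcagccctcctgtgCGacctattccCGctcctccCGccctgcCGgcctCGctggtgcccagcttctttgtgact
Zpbp2: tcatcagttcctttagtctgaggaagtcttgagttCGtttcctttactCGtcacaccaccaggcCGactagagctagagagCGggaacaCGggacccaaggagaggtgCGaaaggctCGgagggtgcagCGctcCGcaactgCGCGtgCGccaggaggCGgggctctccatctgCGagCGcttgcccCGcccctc
Spata18: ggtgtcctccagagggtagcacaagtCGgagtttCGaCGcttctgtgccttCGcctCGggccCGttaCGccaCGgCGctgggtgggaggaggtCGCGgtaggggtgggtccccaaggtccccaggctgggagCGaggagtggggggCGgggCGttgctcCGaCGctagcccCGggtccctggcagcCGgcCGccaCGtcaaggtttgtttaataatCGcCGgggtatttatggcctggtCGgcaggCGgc
Acrv1: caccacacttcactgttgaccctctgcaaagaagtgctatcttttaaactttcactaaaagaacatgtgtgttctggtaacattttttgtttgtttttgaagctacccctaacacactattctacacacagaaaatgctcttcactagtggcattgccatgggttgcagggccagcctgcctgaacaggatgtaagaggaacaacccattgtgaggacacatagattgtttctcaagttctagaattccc
Prm1: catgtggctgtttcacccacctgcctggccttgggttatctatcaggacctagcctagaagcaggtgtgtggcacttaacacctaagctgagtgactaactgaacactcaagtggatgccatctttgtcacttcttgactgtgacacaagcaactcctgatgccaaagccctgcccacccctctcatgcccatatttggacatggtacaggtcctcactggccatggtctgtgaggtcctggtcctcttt

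At the starts of the 40 spermatid genes, *Hells* cKO peaks were found at 13 and *Hells* CTRL peaks at 1. A promoter peak is one whose center lies within 1 kb of the start of any annotated transcript. In *Hells* cKO the members with one made up 32.5% (95% CI 18.6 to 49.1), beside 45.6% of all protein-coding genes (9925 of 21755). In *Hells* CTRL the single member, *Oaz3*, made up 2.5% (95% CI 0.0633 to 13.2), beside 2.70% (587 of 21755). Both intervals of the members hold the share of all genes. With only the peaks at or above the median strength of the list, 8 members kept a *Hells* cKO promoter peak, beside 31.3% of all genes.

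The members' starts were poorer in CpG dinucleotides than the typical start. Within 250 bp on each side of the representative start, the median was 13.5 CG, from 1 in *Acrv1* and *Smcp* to 64 in *Hook1*, beside 26 over all protein-coding genes. The median ratio of observed to expected CG, which takes base composition into account, was 0.398, beside 0.617, while the median GC content was 56.1%, beside 58.1%. Starts were put in 3 classes. Of the members, 6 had under 6 CG (15%, beside 21.2% of all genes), 21 had 6 to 19 (52.5%, beside 22.5%) and 13 had 20 or more (32.5%, beside 56.4%). The middle class was thus the largest among the members and the class of 20 or more CG among all genes.

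**Figure D1:**
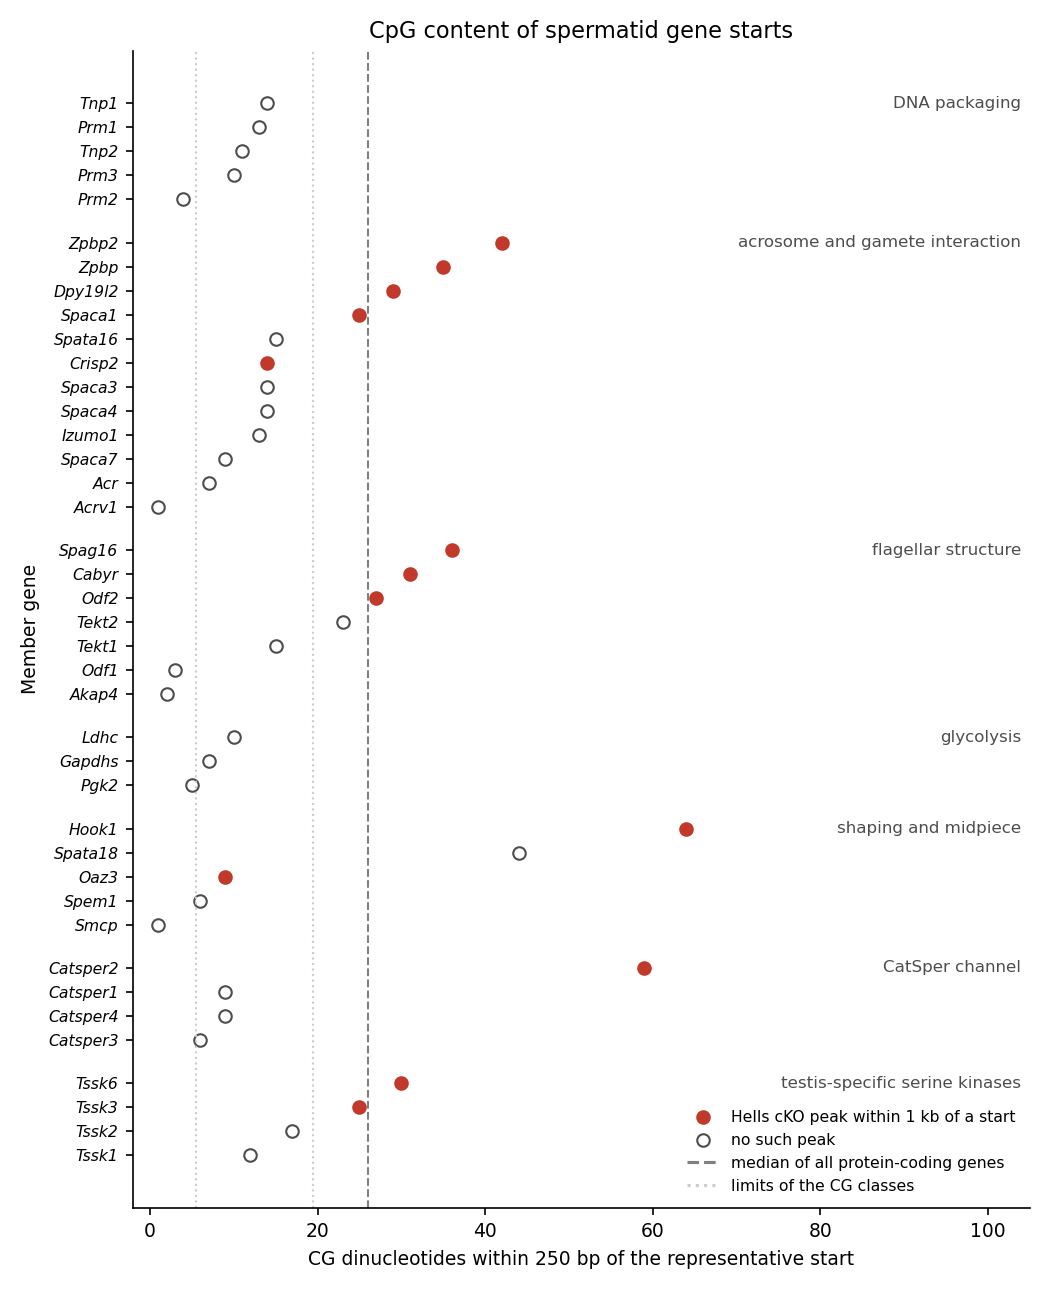
CG dinucleotides within 250 bp of the representative start (x axis) for each of the 40 members (rows, grouped by role). Filled points have a Hells cKO peak within 1 kb of a start, open points have none, the dashed line is the median of all protein-coding genes (26) and the dotted lines limit the 3 classes. Filled points lie at 25 CG or more except those of Crisp2 (14) and Oaz3 (9), and the open points above 20 CG are Tekt2 (23) and Spata18 (44).

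The *Hells* cKO promoter peaks of the members went with the CpG class. With 20 or more CG, 11 of 13 members had one (84.6%, 95% CI 54.6 to 98.1), beside 69.5% of all genes in this class (8517 of 12262). With 6 to 19 CG, 2 of 21 had one (9.52%, 95% CI 1.17 to 30.4), beside 23.8% (1161 of 4886). With under 6 CG, 0 of 6 had one (95% CI 0 to 45.9), beside 5.36% (247 of 4607). In each class the interval of the members holds the share of all genes. With 6 to 21 members per class, however, only a large difference would have put that share outside the interval, and smaller differences would go unseen. If each class of members had the share of all genes of its class, 14.3 members would have a promoter peak, beside the 13 counted. The median was 30 CG in members with a *Hells* cKO promoter peak (40 over all such genes) and 10 in members without (9 over all genes without).

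**Figure D2:**
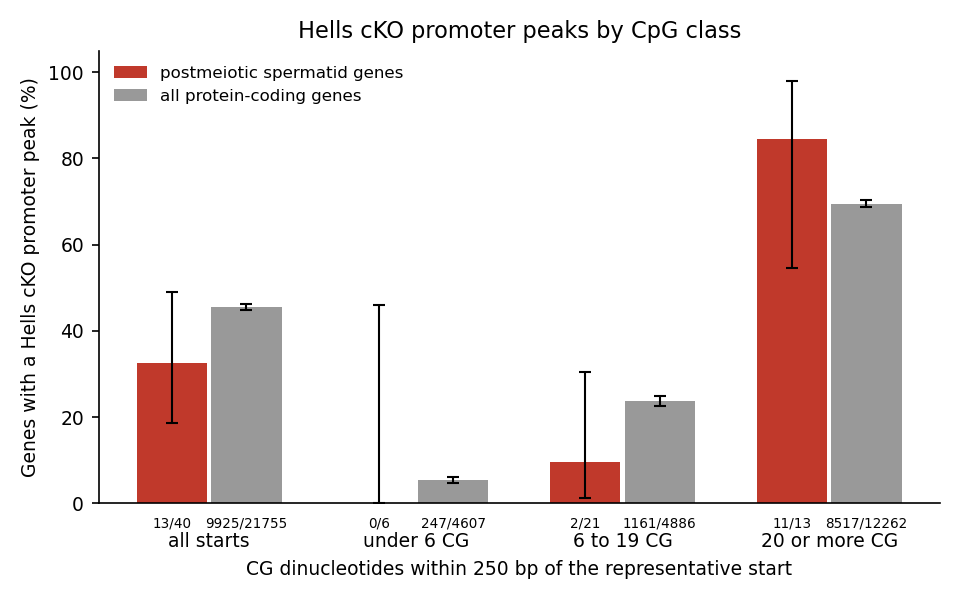
Share of genes with a Hells cKO promoter peak (y axis, %), over all starts and in each class of CG within 250 bp of the start, for the 40 members (red) and all 21755 protein-coding genes (grey). Error bars are exact 95% confidence intervals for counting error, the fractions give the genes behind each bar, and the share rises with the class in both, from 0 of 6 to 11 of 13 members.

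CpG was not spread evenly around the members' starts. The 250 bp upstream held a median of 4 CG (9 over all genes) and the 250 bp downstream 8.5 (14 over all genes). There was no CG at all upstream of 5 members (12.5%, beside 7.41% of all genes): *Prm1*, *Acrv1*, *Akap4*, *Gapdhs* and *Smcp*. *Prm1* had 13 CG in the window and every one lay downstream of the start. *Spaca1* had 3 upstream and 22 downstream, and *Zpbp*, which carried the second strongest peak of the members, 5 and 30. *Catsper2* was the reverse, with 35 upstream and 24 downstream.

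In spermatids, histones are replaced first by transition proteins and then by protamines. *Prm3* is counted among the 5 genes listed for DNA packaging, although whether its product packages DNA was not checked. None of the 5 had a promoter peak in either list. Their representative starts held 14 CG (*Tnp1*), 13 (*Prm1*), 11 (*Tnp2*), 10 (*Prm3*) and 4 (*Prm2*). The other annotated start of *Prm2* held 10. Of all genes, 23.8% with 6 to 19 CG and 5.36% with under 6 had a *Hells* cKO promoter peak. A *Hells* CTRL promoter peak was at 2.70% of all genes. At such shares, the absence of peaks at 5 genes does not set them apart. *Prm1*, *Prm2*, *Prm3* and *Tnp2* lie in 1 cluster on chromosome 16, and their nearest *Hells* cKO peak was the same one (chr16:10784804-10786923, strength 57, percentile 72.7), with its center 327 bp from the start of *Socs1*, a gene for a suppressor of cytokine signalling. From the nearest annotated start of each gene, it lay 11023 bp from *Prm1*, 6242 bp from *Prm2*, 5051 bp from *Prm3* and 2797 bp from *Tnp2*. For *Prm2* this is the other start, and the representative one was farther away. The *Socs1* start holds 36 CG. On the other side the first *Hells* cKO peak (strength 146) was centered at the start of *Rmi2*, 38305 bp from the representative *Prm1* start. The cluster thus lay between promoter peaks of its neighbours. The nearest *Hells* CTRL peak was 110062 bp from the other annotated start of *Prm1* and farther from the representative one. *Tnp1*, on chromosome 1, was 145136 bp from its nearest *Hells* cKO peak and 86977 bp from its nearest *Hells* CTRL peak.

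**Figure D3:**
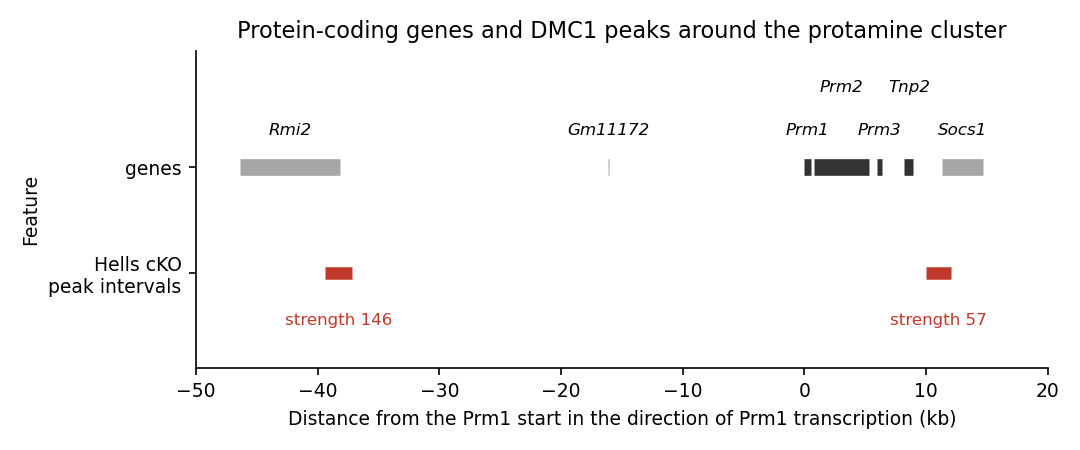
Representative transcripts of protein-coding genes (upper row, members in black and other genes in grey) and Hells cKO peak intervals (lower row, with their strength) by distance from the Prm1 start (x axis, kb, positive in the direction of Prm1 transcription). The peaks lie at the Socs1 start (57) and at the Rmi2 start (146), and none lies at a start of Prm1, Prm2, Prm3 or Tnp2.

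Of the 12 genes for the acrosome and gamete interaction, 5 had a *Hells* cKO promoter peak. *Zpbp* and *Zpbp2* encode zona pellucida binding proteins of the acrosome, and their peaks ranked far apart. That of *Zpbp* (chr11:11461268-11463343) had strength 152, at percentile 93.8, with its center in a coding exon 103 bp from the start. That of *Zpbp2* (chr11:98550493-98551852) had strength 16, at percentile 19.8, although its center was 6 bp from a start with 42 CG around the representative one, against 35 at *Zpbp*. The *Zpbp* peak was also 211 bp from the start of *Spata48*.

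*Spaca1*, for a protein of the acrosomal membrane, had a peak of strength 43, at percentile 63.2 (chr4:34049117-34050892, 35 bp from a start, in an untranslated exon, 25 CG). *Dpy19l2*, which is needed to attach the acrosome to the nucleus, had one of strength 29, at percentile 47.2 (chr9:24695098-24697327, 81 bp, untranslated exon, 29 CG). *Crisp2*, for a cysteine-rich secretory protein found in the acrosome, had one of strength 26, at percentile 42.4 (chr17:40793141-40794876, 59 bp, intron, 14 CG). *Crisp2* was the only member with under 20 CG whose representative start had a *Hells* cKO peak within 1 kb. The other 7 acrosomal members had 1 to 15 CG and no promoter peak. They are *Acrv1* (1 CG), *Acr* (7, the protease acrosin), *Spaca7* (9), *Izumo1* (13, the sperm protein that binds the egg), *Spaca3* (14), *Spaca4* (14) and *Spata16* (15), and their nearest *Hells* cKO peaks were 23457 bp (*Acr*) to 94858 bp (*Spaca7*) away.

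Of the 7 genes of the flagellum, 3 had a *Hells* cKO promoter peak. *Spag16*, for a protein of the central apparatus of the axoneme, had a peak of strength 52, at percentile 69.9 (chr1:69826200-69828021, 118 bp, coding exon, 36 CG). *Odf2*, for an outer dense fiber protein that is also found at centrosomes, had one of strength 49, at percentile 67.8 (chr2:29888393-29891288, coding exon, 27 CG), 6 bp from 1 of its starts and 700 bp from the representative one. *Cabyr*, for a calcium-binding protein of the fibrous sheath, had one of strength 25, at percentile 40.7 (chr18:12740171-12742268, 92 bp, intron, 31 CG). The starts without a peak were those of *Akap4* (2 CG), the main scaffold of the fibrous sheath and the only member on chromosome X, *Odf1* (3), *Tekt1* (15) and *Tekt2* (23), the last 2 for tektins of the axoneme.

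The 3 sperm isoforms of glycolytic enzymes, *Pgk2* (5 CG), *Gapdhs* (7) and *Ldhc* (10), had no promoter peak in either list. For *Hells* cKO this stands beside 5.36% of all genes with under 6 CG and 23.8% with 6 to 19. For *Hells* CTRL it stands beside 2.70% of all genes. *Pgk2* was the member farthest from a *Hells* cKO peak, at 278490 bp. Its nearest *Hells* CTRL peak, at 278506 bp, was at the same site, near the start of *AC162805.2* (343 bp from it in *Hells* cKO and 327 bp in *Hells* CTRL). *Gapdhs* was 3321 bp and *Ldhc* 58403 bp from the nearest *Hells* cKO peak.

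Of the 5 genes for the shaping of the cell and its midpiece, *Hook1* and *Oaz3* had a *Hells* cKO promoter peak. *Hook1*, which positions the microtubules that shape the sperm head, had the strongest peak of all members, with strength 184 at percentile 96.2 (chr4:95966098-95968411), 14 bp from its start and in an untranslated exon. It also had the most CG, with 64. *Spata18*, for a protein of mitochondrial quality control, had 44 CG and an observed to expected ratio of 0.850, and no peak within 1 kb in either list. *Spem1* (6 CG), needed for the removal of cytoplasm, and *Smcp* (1 CG), of the mitochondrial capsule, had none, and their nearest *Hells* cKO peaks were 26680 and 51183 bp away.

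*Oaz3*, a spermatid antizyme of ornithine decarboxylase, was the only member with a promoter peak in both lists, and the peaks were at different starts. In *Hells* CTRL, a peak of strength 111 (chr3:94435569-94437150, percentile 66.5) lay 195 bp from the representative start, which has 9 CG, in an exon of a noncoding transcript, with 8 CG around its own center. In *Hells* cKO, a peak of strength 52 (chr3:94442375-94444890, percentile 69.9) lay 201 bp from another annotated start, in an intron, with 34 CG around its center, and 295 bp from the start of *Mrpl9*, a mitochondrial ribosomal protein gene. The centers were 7.27 kb apart and did not count as common. The *Hells* cKO peak was 7078 bp from the representative start, so by that start alone 12 members have a *Hells* cKO promoter peak.

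In the CatSper channel, which carries calcium into the flagellum, *Catsper2* differed from the other subunits in CpG as well as in peaks. It had 59 CG and a *Hells* cKO peak of strength 128, at percentile 91.0 (chr2:121412713-121415002), whose center was 65 bp from its start but 26 bp from that of *Pdia3*, a gene for a protein disulfide isomerase. *Catsper1* (9 CG), *Catsper3* (6) and *Catsper4* (9) had no promoter peak and were 28335, 56892 and 40866 bp from the nearest *Hells* cKO peak. *Catsper1* was 2961 bp from a *Hells* CTRL peak.

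Among the testis-specific serine kinases, *Tssk6* (30 CG) had a *Hells* cKO peak of strength 33, at percentile 52.9 (chr8:69900827-69903100, 221 bp from its start), with the starts of *Ndufa13* and *Yjefn3* 595 and 749 bp from the center. *Tssk3* (25 CG) had the weakest promoter peak of the members, of strength 12 at percentile 7.97 (chr4:129490686-129492229), 435 bp from its start and 217 bp from that of *Fam229a*. *Tssk1* (12 CG) and *Tssk2* (17 CG) had none and were 2764 and 7178 bp from a peak at the start of *Dgcr2*.

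The 13 members' *Hells* cKO promoter peaks had strengths of 12 to 184, in a list that runs from 5 to 3299, and percentiles of 7.97 to 96.2. Their median strength was 43, at percentile 63.2, beside 48, at percentile 67.1, for the strongest promoter peak of each of the 9925 protein-coding genes. Ranked among promoter peaks only, the medians were 48.0 and 52.5. *Hook1*, *Zpbp* and *Catsper2* were above percentile 90, and *Zpbp2* and *Tssk3* below percentile 20. The centers were 6 to 435 bp from the nearest start of the member, with a median of 81 bp, beside 145 bp over all genes with a promoter peak.

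**Figure D4:**
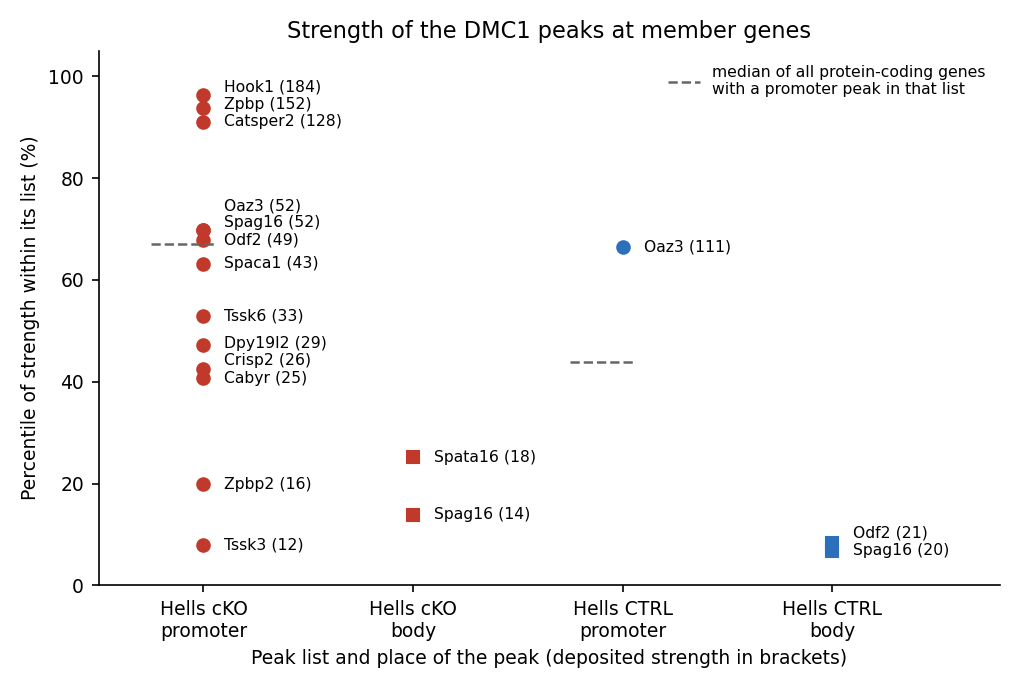
Percentile of strength within its own list (y axis) for the 18 peaks at members, by list and by place (circles for promoter peaks, squares for body peaks), with the deposited strength in brackets. Dashed lines are the medians of all protein-coding genes with a promoter peak in that list. Promoter peaks of Hells cKO run from 7.97 (Tssk3) to 96.2 (Hook1), and the 4 body peaks lie at 25.2 or below.

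Of the 13 members with a *Hells* cKO promoter peak, 5 shared it with a start of another protein-coding gene within 1 kb of the center (38.5%, 95% CI 13.9 to 68.4), beside 22.7% of the 9925 protein-coding genes with one. These were *Zpbp*, *Catsper2*, *Oaz3*, *Tssk6* and *Tssk3*. *Hook1* shared its peak with the noncoding *9530080O11Rik*, at 219 bp. At *Catsper2* and *Tssk3* the other gene's start was the nearer one, and without these 11 members remain. The peaks give no means of telling which of the starts they belong to.

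In *Hells* cKO, the farthest center within the limit of 1 kb was the 435 bp of *Tssk3*, and the nearest ones outside it were the 2764 bp of *Tssk1* and the 2797 bp of *Tnp2*. In *Hells* CTRL, the only center inside was the 195 bp of *Oaz3*, and the nearest outside were the 2022 bp of *Odf2* and the 2961 bp of *Catsper1*. A *Hells* cKO peak 1 to 5 kb from a start was the nearest for 5 members (12.5%), beside 3.90% of all genes, and each was within 1 kb of the start of a neighbouring gene. Besides *Tssk1* and *Tnp2* these were *Gapdhs* (3321 bp, a peak of strength 16 at *Tmem147os* and *Tmem147*), *Tekt2* (3527 bp, strength 38, 31 bp from the *Adprhl2* start) and *Spata18* (3804 bp, strength 79, at *Gm43799* and *Sgcb*). The windows around these 5 centers held 30 to 58 CG, more than the start of the member itself in every pair. Each pair sets a peak center against a start without a peak, and peaks went with CpG. The pairs therefore add nothing separate to the counts by class. Of all 27 members without a *Hells* cKO promoter peak, 23 had their nearest peak within 1 kb of the start of another gene (85.2%), beside 70.4% of all genes without one, and the members of 1 cluster share such peaks.

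The distance from a start to the nearest *Hells* cKO peak had a median of 6710 bp over the 40 members, beside 5536 bp over all genes, and of 31700 bp over the 27 without a promoter peak, beside 54397.5 bp. For *Hells* CTRL the medians were 64388.5 bp and 66109 bp. Almost every member was thus far from the breaks of control mice, as genes in general were. For *Akap4* the nearest peaks of both lists lay at the same site, the start of *Ccnb3*. The *Hells* cKO peak was 25805 bp away (strength 247, 95 bp from the *Ccnb3* start) and the *Hells* CTRL peak 25839 bp (61 bp from that start).

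**Figure D5:**
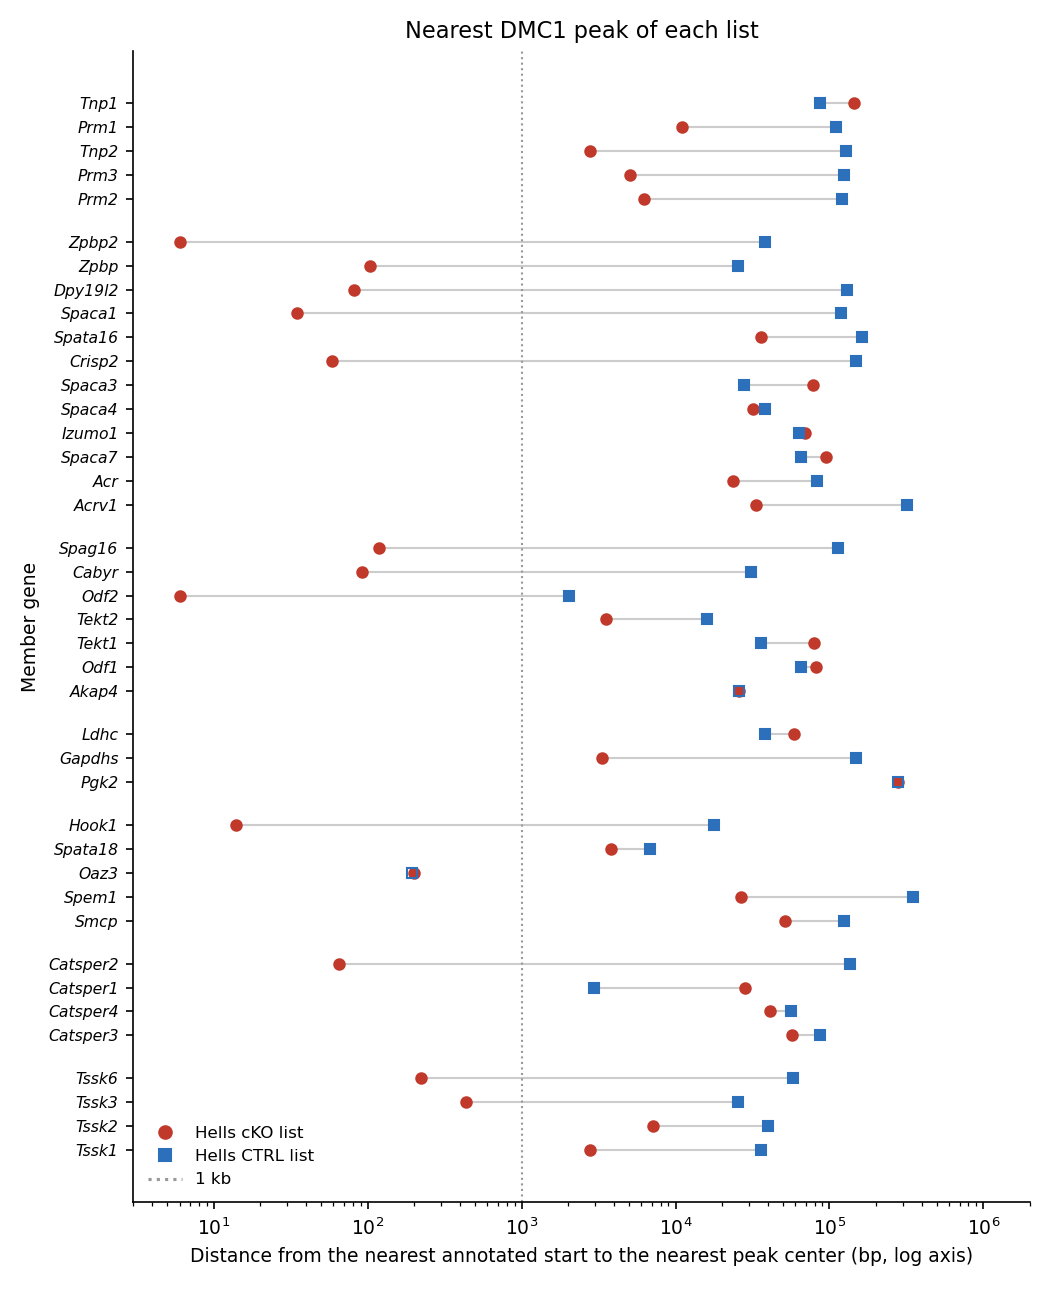
Distance in bp (x axis, log scale) from the nearest annotated start of each member (rows, grouped by role in the order of the CpG plot) to the nearest peak center of the Hells cKO list (circles) and of the Hells CTRL list (squares, drawn open where both symbols coincide), with the 1 kb limit dotted. Of the circles 13 lie left of the limit, and of the squares only that of Oaz3 (195 bp) does.

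Body peaks lay inside the gene and more than 1 kb from each of its starts. In *Hells* cKO 2 members had a body peak (5%, 95% CI 0.611 to 16.9), beside 10.3% of all genes, and in *Hells* CTRL likewise 2, beside 16.4%. The interval of the members, the same for both lists, holds both shares of all genes. *Spata16*, a gene for a Golgi protein of acrosome formation, had a *Hells* cKO peak of strength 18 (chr3:26878279-26880124, percentile 25.2). *Spag16* had one of strength 14 in *Hells* cKO (chr1:70122603-70123904, percentile 13.9) and one of strength 20 in *Hells* CTRL (chr1:70063810-70065235, percentile 6.78). *Odf2* had a *Hells* CTRL peak of strength 21 (chr2:29904709-29906486, percentile 8.40), 2022 bp from 1 of its starts. All 4 were in introns and in the lower part of their list.

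Body peaks depend on gene length, and the members were short, with a median of 9482 bp beside 17414 bp, and 6 of 40 had a single-exon representative transcript (15%, beside 6.89%). Per Mb of gene, the members had 0.987 body peaks in each list (2 peaks over 2.03 Mb), beside 2.97 in *Hells* cKO and 5.15 in *Hells* CTRL over all genes. *Spag16*, *Spata16*, *Zpbp* and *Dpy19l2* make up 77.3% of the members' summed length, so these rates rest on few genes. None of the 15 *Hells* cKO peaks of the members (13 promoter and 2 body peaks; 95% CI 0 to 21.8%) and none of their 3 *Hells* CTRL peaks (1 promoter and 2 body peaks; 95% CI 0 to 70.8%) was common to both lists, for which the center ± 200 bp must overlap that of a peak in the other list. Over whole lists, common peaks were 6.60% of the 17117 *Hells* cKO peaks and 10.1% of the 11133 *Hells* CTRL peaks. By any overlap of the intervals the members likewise had none, beside 7.79% and 12.0%. With so few peaks these intervals are too wide to tell the members from the whole lists.

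Further genes of the same roles, from a list made by known role, were counted beside the members. The 76 other spermatid genes had a median of 11.5 CG. *Catspere1* among them is annotated as an unprocessed pseudogene, so it is not one of the protein-coding genes. Of the 76, 22 had a *Hells* cKO promoter peak (28.9%, 95% CI 19.1 to 40.5) and 3 had a *Hells* CTRL promoter peak. By class the *Hells* cKO promoter peaks were at 1 of 20 genes with under 6 CG, 9 of 36 with 6 to 19 and 12 of 20 with 20 or more. From the class shares of all genes 23.5 would follow. Per Mb of gene these other spermatid genes had 2.57 *Hells* cKO and 5.15 *Hells* CTRL body peaks, near the 2.97 and 5.15 of all genes. The lower body rate of the members rests on 2 peaks in each list, and these other spermatid genes did not share it. The 44 genes of meiotic recombination and synapsis, chosen for their known role, were a second list for comparison, and their RNA was not measured here either. Of them 37 had a *Hells* cKO promoter peak (84.1%, 95% CI 69.9 to 93.4), beside the 25.7 that follow from the class shares, and their median was 32 CG. In the class of 6 to 19 CG, 5 of 5 meiotic genes had a peak, beside 2 of 21 members, and in that of 20 or more CG, 31 of 35 had one, beside 11 of 13 members. With under 6 CG, 1 of 4 meiotic genes had one, beside 0 of 6 members. Unlike the members, the meiotic genes without a peak had more CG (median 38, 7 genes) than those with one (median 32). The difference between the lists was not tested.

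Words in the sequence were counted as letters only. The cAMP response element TGACGTCA, read by the spermatid activator CREM, was within 250 bp of the start of 1 member, *Izumo1* (2.5%), beside 2.75% of all genes. The shorter word TGACG, on either strand and counted also inside the longer one, was at 17 of 40 members (42.5%, 95% CI 27.0 to 59.1), beside 33.1%. GNTGCTNCT, a core of the word bound by PRDM9 of C57BL/6 mice, searched on both strands, was within 100 bp of 16.0% of the 11133 *Hells* CTRL centers and of 6.35% of the 17117 *Hells* cKO centers (3.58% and 3.18% in windows 1000 bp to the left). It was at none of the 3 *Hells* CTRL peaks of the members and at 1 of their *Hells* cKO peaks, that of *Cabyr*.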

How the data were processed

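DMC1 ChIP-SSDS was performed by the authors on 2 replicates per genotype. They cut reads to 50 bp, filtered on Phred quality (above 28), aligned to the GRCm38/mm10 genome, dropped duplicates and multiple mappers, called peaks with MACS and selected them by Irreproducible Discovery Rate on merged replicates. The deposited value of each peak is a score made by the authors, its strength: per their methods, fragments at the re-centered peak after correction for local background and library size. All values were whole numbers, so the library-size step could not be checked.

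Here, the midpoint of each interval was its center. Promoter peaks lay within 1 kb of any GENCODE M21 transcript start, and body peaks inside the gene and over 1 kb from its starts. A peak was common if the center ± 200 bp overlapped that of a peak in the other list. CG was counted within 250 bp of 1 representative protein-coding transcript per gene. Members, role lists, CG classes and words were chosen with earlier results of these data known. Every member with a peak was named with its values, the others by role, and other genes only where their start lay at such a peak. Assignment was tested on simulated data (1000 peaks planted within or beyond 1 kb of a start, 100% classed as planted). Python 3.11.15, scipy 1.17.1 and matplotlib 3.10.9 were used. The 5hMeDIP libraries were not analysed here.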

Additional observations from a re-analysis of the deposited data

How the results depend on the processing

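No paired analysis was possible because the authors merged the replicates of each genotype, and for the same reason no replicate could be left out. Of 35 alternatives, 27 kept the count or median within 1.5 times (for the *Hells* cKO promoter peaks, 11 to 13 members under other reaches, overlap of intervals, coding or representative starts, the nearest start or autosomes alone), and 8 moved it. With peaks at or above the median strength, 8 members had a *Hells* cKO promoter peak, 0 a *Hells* cKO body peak and 0 a *Hells* CTRL body peak. The shares of all genes were 31.3%, 4.19% and 9.91%. By overlap of intervals, 4 of 40 members had a *Hells* cKO body peak, beside 11.6% of all genes. The median CG was 23.5 with 500 bp on each side of the start (44 over all genes), 5.5 from 250 bp before to 50 bp after (13 over all genes), and 4 in the 250 bp upstream alone (9 over all genes), the last chosen after seeing the data. These windows differ in length, and the members stayed below all genes in each. With classes set by the start with the most CG, 1 member with 6 to 19 CG had a *Hells* cKO promoter peak (14.4% of all genes), since *Oaz3* moved to the class of 20 or more.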
